A study of Homo sapiens with 13 samples.

Results

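Peak lists of GFP-tagged DNMT1 that lacked its RFTS domain (RFTSdel) were compared with peak lists of wild-type GFP-DNMT1 in cells given DMSO, the solvent control of the study, for 7 days. Of 13 samples in the series, 4 entered the comparison: RFTSdel replicates 1 and 2, 1 library named WT and 1 named NTC. All 4 came from MV4-11, an established human acute myeloid leukaemia line. In each, the labels give an ectopically overexpressed GFP-DNMT1 and a guide, gDNMT1, against the endogenous gene. The NTC cells additionally carried the non-targeting guide gNTC, as the control of a UHRF1 knockout. Chromatin was precipitated with an anti-GFP antibody, so each list describes the tagged protein, and nothing in the lists checks how far endogenous DNMT1 was lost or how much tagged protein each line made. The sources used here do not name the promoter of the transgene or say whether a line is a clone or a pool. By the sample labels, RFTSdel, WT and the parental library belong to batch 1 and NTC to batch 2, so a difference between WT and NTC can be one of batch or of guide, and these cannot be told apart. The members are the peaks of these 4 lists on chromosomes 1 to 22 and X that do not overlap a peak of untransduced parental MV4-11 cells by 1 bp. A region was called different only when both libraries of 1 side had a peak there and both libraries of the other side had none.

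DNMT1 is the maintenance methyltransferase that copies CpG methylation onto the new strand after DNA replication. Its RFTS domain lies towards the N-terminus, where it directs the enzyme to replication foci by binding ubiquitinated histone H3, a mark written by UHRF1, and where it also folds into the catalytic pocket and holds the enzyme in an inhibited state. CpG islands, the CG-rich stretches at many gene starts, are mostly unmethylated in normal cells, whereas methylated CpGs lie largely in gene bodies, repeats and silent chromatin. The comparison addresses what the RFTS domain itself contributes to where DNMT1 is found on chromatin.

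The 3 best ranked regions of each direction that overlapped a promoter window in the RefSeq table (GRCh38.p14) are shown first, as examples of promoters at which the sides differed. They do not stand for either class, since 15.5% of wild-type-only and 51.7% of RFTSdel-only regions lay at a coding gene start. Each line gives the 250 bases before the annotated start, 5′ to 3′ on the gene's own strand, with every CpG in capitals. The first 3 had a peak in both RFTSdel libraries and in neither wild-type library. LOC102503427, a long non-coding RNA (chr5:72556827-72557076, plus strand), holds 19 CpGs. LIMCH1-AS1, an antisense RNA inside LIMCH1 (chr4:41692798-41693047, minus strand), holds 6. SMDT1, which encodes a subunit of the mitochondrial calcium uniporter (chr22:42079450-42079699, plus strand), holds 27.
LOC102503427: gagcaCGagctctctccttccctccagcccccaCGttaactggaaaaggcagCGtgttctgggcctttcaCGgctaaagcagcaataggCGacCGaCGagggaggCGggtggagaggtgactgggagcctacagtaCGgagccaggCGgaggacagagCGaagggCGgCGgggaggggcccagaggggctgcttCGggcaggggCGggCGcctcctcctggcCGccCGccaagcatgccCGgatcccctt
LIMCH1-AS1: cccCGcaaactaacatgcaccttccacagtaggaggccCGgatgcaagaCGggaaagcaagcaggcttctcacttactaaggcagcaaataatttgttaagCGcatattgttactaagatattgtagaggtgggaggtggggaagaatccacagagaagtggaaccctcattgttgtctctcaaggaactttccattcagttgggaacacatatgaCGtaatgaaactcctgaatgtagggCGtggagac
SMDT1: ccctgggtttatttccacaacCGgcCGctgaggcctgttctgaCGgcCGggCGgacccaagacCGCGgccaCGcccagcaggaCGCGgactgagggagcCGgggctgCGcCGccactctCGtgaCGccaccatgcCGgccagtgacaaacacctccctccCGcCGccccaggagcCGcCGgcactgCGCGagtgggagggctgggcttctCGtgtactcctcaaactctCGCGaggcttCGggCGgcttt
The other 3 had a peak in WT and NTC and in neither RFTSdel library. MYO1D, an unconventional myosin gene (chr17:32877125-32877374, minus strand), holds 35 CpGs. CADM4, a cell adhesion gene (chr19:43639851-43640100, minus strand), holds 30. ZNF329, a zinc finger gene (chr19:58150790-58151039, minus strand), holds 20.
MYO1D: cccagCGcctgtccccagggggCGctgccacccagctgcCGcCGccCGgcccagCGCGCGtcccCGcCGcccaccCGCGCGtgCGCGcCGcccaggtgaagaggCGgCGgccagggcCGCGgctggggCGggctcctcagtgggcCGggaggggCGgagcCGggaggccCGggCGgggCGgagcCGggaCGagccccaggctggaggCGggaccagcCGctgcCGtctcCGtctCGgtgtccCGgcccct
CADM4: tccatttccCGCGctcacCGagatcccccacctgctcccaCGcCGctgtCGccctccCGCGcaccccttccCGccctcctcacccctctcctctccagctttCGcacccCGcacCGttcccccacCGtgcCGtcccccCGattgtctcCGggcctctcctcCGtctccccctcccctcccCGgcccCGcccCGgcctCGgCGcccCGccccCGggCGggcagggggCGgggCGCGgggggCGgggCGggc
ZNF329: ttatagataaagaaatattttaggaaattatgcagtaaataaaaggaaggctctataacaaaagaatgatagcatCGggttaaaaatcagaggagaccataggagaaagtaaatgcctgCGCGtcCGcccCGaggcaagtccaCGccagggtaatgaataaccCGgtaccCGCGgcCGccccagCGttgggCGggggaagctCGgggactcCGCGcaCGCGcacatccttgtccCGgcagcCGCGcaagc
GC content ran from 46.8% (LIMCH1-AS1) to 70% (SMDT1) in the first set and from 52.8% (ZNF329) to 83.2% (MYO1D) in the second, so the sets overlapped.

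The lists hold no read counts, and sequencing depth is unknown. After filtering, 12240 peaks remained in RFTSdel replicate 1, 14020 in replicate 2, 16706 in WT and 23561 in NTC. The parental list of 426 peaks, the background of the antibody, was called almost whole in each library, from 96.7% in WT to 99.3% in NTC, and its peaks were removed. The labels do not tell whether RFTSdel replicates 1 and 2 were separate cultures, and their spread may be technical. With 2 libraries against 2, the exact two-sided permutation test cannot go below p = 0.333, so no difference here could pass a usual threshold. Every fold enrichment and q value of a peak is the authors' and describes that peak within its own list.

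RFTSdel gave fewer peaks than wild type, but its peaks were the stronger ones. Peak number was lower in 2 of 2 RFTSdel libraries, by −0.60 on the log2 scale (a ratio of 0.66; exact two-sided permutation test, p = 0.333, n = 2 and 2). The difference was −0.35 against WT, the library of the same batch, and −0.85 against NTC. The covered length was 9.38 and 11.2 Mb in RFTSdel, 12.6 Mb in WT and 16.5 Mb in NTC. The median −log10 q of a peak was 4.36 and 4.31 in RFTSdel, 2.18 in WT and 1.96 in NTC, and the highest was 71.6, 70.6, 17.8 and 18.9 in the same order. The number of peaks therefore turned with the threshold. At −log10 q of at least 2 the lists held 10570, 12003, 9670 and 11426 peaks, and the log2 difference was 0.10. At 4 or more they held 6699, 7533, 1867 and 2336, a log2 difference of 1.77, and at 8 or more 2354, 2606, 89 and 139. RFTSdel peaks were also wider, with a median of 642 and 664 bp against 584 bp in WT and 539 bp in NTC, a difference of 91.5 bp (exact permutation test, p = 0.333). Read depth, strength of enrichment and amount of tagged protein can each move these values, and their part was not tested.

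**Figure D1:**
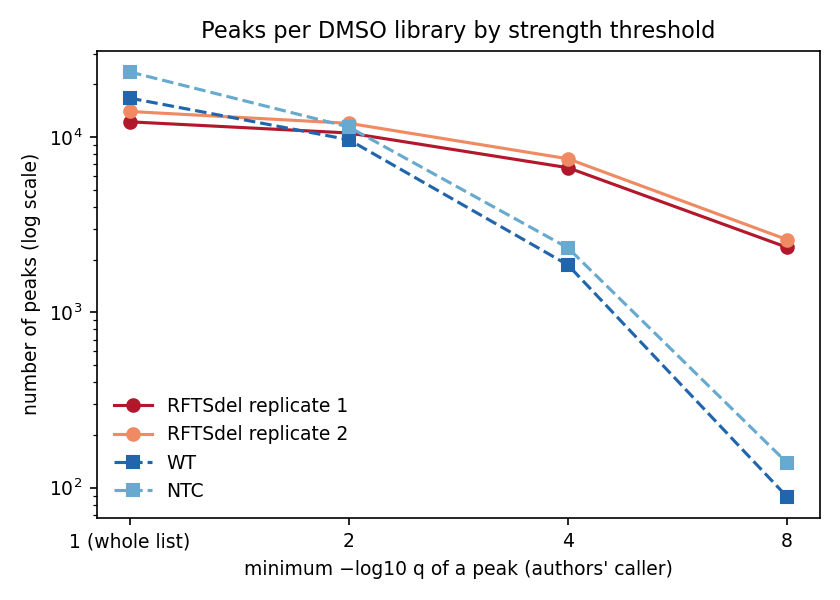
Number of peaks (log scale) in each of the 4 DMSO libraries at a minimum −log10 q of 1, 2, 4 and 8; circles and solid lines are RFTSdel, squares and dashed lines wild type. Both wild-type lists are the longer ones over the whole list and the shorter ones from 4 upwards, with 89 and 139 peaks at 8 against 2354 and 2606.

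RFTSdel peaks lay at gene ends more often, and wild-type peaks lay more often inside genes and between them. A window of 1 kb around both ends of every protein-coding gene makes up 2.39% of the genome span. It held 63.7% of the peaks of RFTSdel replicate 1 (95% Wilson interval 62.8 to 64.5), 59% of replicate 2 (58.2 to 59.8), 47.6% in WT and 39.5% in NTC. The mean difference was 17.8 percentage points (exact permutation test, p = 0.333), with 13.8 against WT and 21.9 against NTC. Intervals of this kind cover counting error only. The interior of coding genes, away from both ends, held 20.3% and 22.7% of RFTSdel peaks, 30.2% in WT and 34% in NTC. Outside every annotated gene, which is 44.8% of the span, lay 11% and 12.6% of RFTSdel peaks, 16.7% in WT and 19.7% in NTC. The last 3 Mb of the chromosomes held 11.6% of the peaks in each RFTSdel library, 16.1% in WT and 14.2% in NTC. Groups did not overlap in any of these shares.

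Around gene starts the same order was seen at finer scale. For genes whose strand is known, the centre of a peak was within 250 bp of a start in 40.4% and 36.4% of RFTSdel peaks, 24.4% in WT and 20.4% in NTC. The median distance to the nearest start was 489 and 1076 bp in RFTSdel, 7531 bp in WT and 12515 bp in NTC. When peaks under a −log10 q of 4 were left out, the shares at gene ends were closer, 74.5% and 72.4% in RFTSdel, 65.9% in WT and 66.6% in NTC. The number of coding genes marked by a peak at an end differed far less than the shares: 9001 and 9520 of 19974 genes in RFTSdel, 8850 in WT and 10187 in NTC, and here the groups overlapped.

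In the whole lists most RFTSdel peaks overlapped a wild-type peak, 77.6% on average, but the share was 49.1% at a fold enrichment of at least 4 and 22.8% at −log10 q of at least 4. Of the peaks of RFTSdel replicate 1, 88.2% overlapped a peak of replicate 2, 74.4% one of WT and 84.6% one of NTC. Of replicate 2, 76.7% overlapped replicate 1, 69.9% WT and 81.4% NTC. In the other direction, 54.5% and 58.7% of WT peaks and 44% and 48.7% of NTC peaks overlapped replicate 1 and replicate 2. WT and NTC shared 70% of the WT list and 50% of the NTC list. With each list reduced to its 12240 strongest peaks, the RFTSdel replicates shared 83.8% and 83.4%, RFTSdel and wild-type lists between 63.2% and 63.8%, and WT and NTC 58.1% and 58.2%. At equal length the wild-type libraries thus shared less with each other than either did with RFTSdel. The WT and NTC pair spans both batches, and so do the NTC and RFTSdel pairs, which shared 63.2% to 63.7%.

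The 4 lists merged into 30641 regions. All 4 libraries called 8069 of them (26.3%). Both RFTSdel libraries and neither wild-type library called 557 (1.82%, RFTSdel-only), and WT and NTC but no RFTSdel library called 2304 (7.52%, wild-type-only). NTC alone called 9005 and WT alone 4007, while RFTSdel replicate 1 alone called 631 and replicate 2 alone 1183. The directions differed in −log10 q, as the whole lists did. At regions called in all 4 the median was 5.63 and 5.98 in RFTSdel, 2.67 in WT and 2.83 in NTC. Both classes lay below their own lists. RFTSdel-only regions had medians of 2.91 and 3.25 (whole lists 4.36 and 4.31). Wild-type-only regions had 1.91 in WT and 1.77 in NTC (whole lists 2.18 and 1.96). The lower of the 2 −log10 q values was at least 4 in 101 of the 557 RFTSdel-only regions and in 11 of the 2304 wild-type-only regions, and its maximum was 37.5 and 5.84. With lists of equal length the counts changed places, to 1541 RFTSdel-only and 829 wild-type-only regions. They also rested on which libraries had to agree. Without WT there were 1069 RFTSdel-only and 11403 wild-type-only regions, without NTC 2138 and 6372, and without RFTSdel replicate 1 or 2 there were 1756 or 1219 RFTSdel-only regions.

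**Figure D2:**
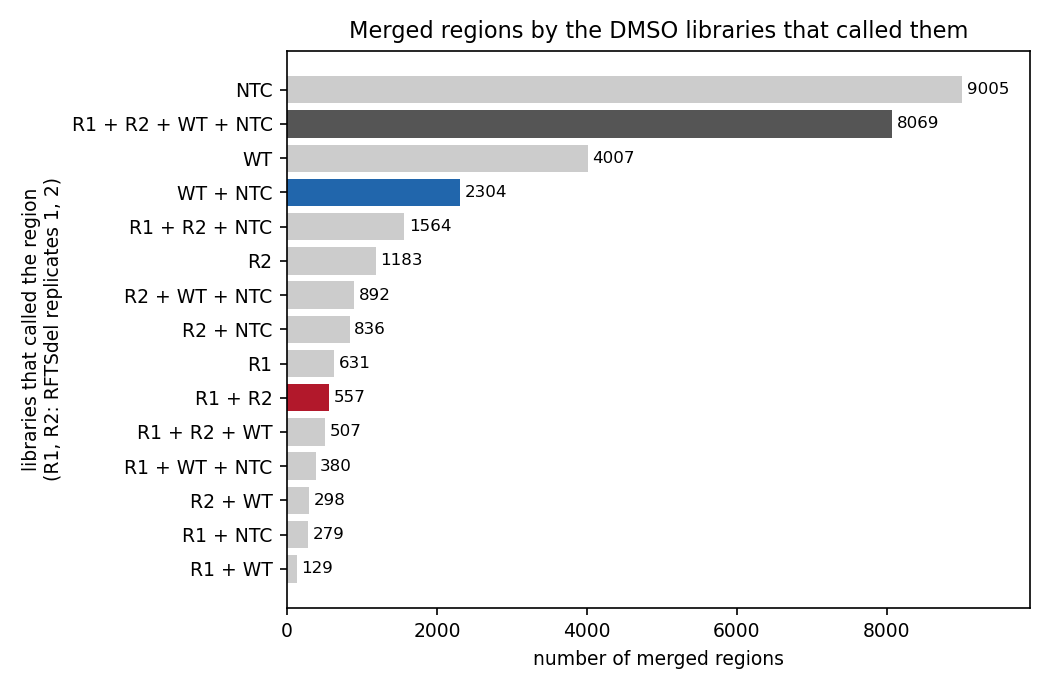
Number of merged regions for each combination of DMSO libraries that called them (R1 and R2, RFTSdel replicates 1 and 2). The red bar is the 557 RFTSdel-only regions, the blue bar the 2304 wild-type-only regions and the dark bar the 8069 regions called in all 4.

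Of the 10 strongest RFTSdel-only regions, 1 lay within 1 kb of a coding gene's end and the others lay in gene interiors, at non-coding genes or between genes. It was the first, in DNAH8, an axonemal dynein gene, 301 bp from its end (chr6:39029078-39030491). Its −log10 q was 58.1 in replicate 1 and 37.5 in replicate 2, with a fold enrichment of 21.6 and 15.5, and neither wild-type library had a peak there. The second covered the defensin pseudogene DEFA9P on chromosome 8 (6957801 to 6960211), with 30.4 and 44.9. The third lay in the interior of SEZ6L, a neuronal membrane protein gene on chromosome 22 (26367178 to 26368100), with 22.5 and 37.1. The fourth lay in the interior of COL5A1, a fibrillar collagen gene on chromosome 9, with 17.1 and 17.4. Next came LOC105377918, a non-coding RNA on chromosome 6, with 15.3 and 17.8. The promoter of LOC102503427 shown above had 10.9 and 15.6, the pseudogene ST13P19 10.6 and 11.6, TMEM266 9.98 and 10, and LIMCH1, an actomyosin regulator whose antisense promoter is shown above, 9.81 and 11. All 10 were also called in both RFTSdel libraries treated with the DNMT1 inhibitor GSK-3685032 (100 nM), with 44.8 and 48.1 at DNAH8, and none in the WT or NTC inhibitor libraries. UHRF1KO cells given DMSO, which carry wild-type GFP-DNMT1, called 2 of the 10, LOC102503427 and TMEM266.

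Of the 5 longest RFTSdel-only regions, DEFA9P was also among the strongest, and the values of the others were low. LAMP5-AS1 on chromosome 20 had 2740 bp with a −log10 q of 1.81 and 1.77. DEFA9P followed with 2411 bp, then MAPRE2, a microtubule end-binding gene, with 2162 bp, MEIS1, a homeobox gene active in KMT2A-rearranged leukaemia, with 2030 bp (1.73 and 2.31), and LIMK1, a kinase of the actin cytoskeleton, with 1934 bp. MEIS1 was the one of these called in none of the other 6 libraries. RFTSdel-only regions rarely clustered: ADAP1, ADCY7, RABGAP1 and SDK2 held 2 each, and 509 genes, ABCC10 among them, held 1. RABGAP1, a Rab GTPase regulator, had 2 peaks in each RFTSdel library and 0 in WT and NTC.

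Wild-type-only regions were weaker, as wild-type peaks were at large, and wider, and some clustered in a few genes. The strongest lay 171920 bp from SMOC2, a matricellular protein gene (chr6:168839912-168841363), with a −log10 q of 8.77 in WT and 5.84 in NTC. A site 15569 bp from NACC2, a transcriptional repressor gene, had 5.41 and 5.6. The MYO1D promoter shown above had 5.87 and 4.89, and it was called in both RFTSdel inhibitor libraries with 8.33 and 7.18, so the deletion protein did have a peak there with inhibitor. STMN3, a microtubule regulator, had 4.84 and 7.24, and MAPK15, an atypical MAP kinase gene, 7.17 and 4.32. PKP3, a desmosome gene, had 4.19 and 4.67, KCNK13, a potassium channel gene, 4.63 and 4.17, and the shared end of AZIN2 and ZNF362 4.16 and 6.19. UPK3A and SPATS1 completed the 10, with 4.13 and 5.39 and with 4.25 and 4.07. UHRF1KO cells given DMSO called 10 of these 10.

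The longest wild-type-only regions were EFNA2, an ephrin ligand gene, with 6279 bp, OPLAH with 5861 bp, APC2, a relative of the APC tumour suppressor, with 5703 bp, LINC01667 with 5292 bp, and RNA5SP532 with DUX4L37 with 5189 bp. ARHGAP39, DLGAP2, GSE1 and HCN2 each held 4 wild-type-only regions. HCN2, a pacemaker channel gene of 27279 bp, had 0 peaks in both RFTSdel libraries, 8 in WT and 5 in NTC. DLGAP2, a synaptic scaffold gene, had 1 and 2 in RFTSdel, 17 in WT and 11 in NTC. In HCN2 and DLGAP2 the groups did not overlap, which the rule that chose them favours, so this is no separate support.

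The classes also differed in position. Gene ends held 59.1% of RFTSdel-only regions (interval 54.9 to 63.1), 28.2% of wild-type-only regions (26.4 to 30), 72.4% of regions called in all 4 and 36.6% of all merged regions. The RFTSdel-only share rested on the agreement of both replicates, since leaving out RFTSdel replicate 1 gave 32.4% and leaving out replicate 2 gave 36.4%, near the share of all regions, and the wild-type-only share was 15.2% without WT. Interiors of coding genes held 19.2%, 42% and 15.7%, and the last 3 Mb of chromosomes 5.21%, 22.1% and 12.8%. Median widths were 576, 805 and 1216 bp, which merging 2 or 4 peaks also sets. Of RFTSdel-only regions, 19.4% lay within 5 kb of a wild-type peak, and of wild-type-only regions 15.8% lay within 5 kb of an RFTSdel peak, shares that the rule itself lowers. The 101 RFTSdel-only regions with −log10 q of at least 4 in both replicates lay at gene ends less often, in 45.5%. The regions called in all 4 libraries were led by ZNF414, UCHL5 with RO60, SPNS1, PDXDC1, FAM89B with EHBP1L1, and STAM2. ZNF414 had a −log10 q of 18.6 and 22.8 in RFTSdel, 12 in WT and 13.4 in NTC. UCHL5, a proteasome-bound deubiquitinase gene, had 19.1, 14.5, 12 and 14.9.

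The 6 GFP-DNMT1 libraries that took no part in the choice were then read at the same regions. RFTSdel-only regions were called in 21.5% (interval 18.3 to 25.1) and 41.8% (37.8 to 46) by the RFTSdel inhibitor libraries, in 0.539% by WT and in 1.8% by NTC with inhibitor. UHRF1KO called 70.6% (66.6 to 74.2) under DMSO and 5.21% with inhibitor. Wild-type-only regions were called in 13.5% and 20.7% by RFTSdel, 21.8% by WT and 25.2% by NTC with inhibitor, and by UHRF1KO in 63.1% under DMSO and 14.8% with inhibitor. Regions called in all 4 were found in 58.9% and 76.7% by RFTSdel, in 2.52% by WT and in 9.67% by NTC with inhibitor. All merged regions were called in 21.6% and 30.6% by RFTSdel, 6.17% by WT and 9.42% by NTC with inhibitor. The RFTSdel inhibitor libraries called RFTSdel-only regions near that share in replicate 1 and above it in replicate 2. That share includes the regions called in all 4, which these libraries called most often. In both replicates they called RFTSdel-only regions more often than wild-type-only regions. WT and NTC with inhibitor called RFTSdel-only regions below their shares of all regions and wild-type-only regions above them. UHRF1KO under DMSO had the longest list, 32523 peaks, and called 62.4% of all regions. Most regions seen here with the deletion protein and not with WT or NTC thus had a peak of wild-type GFP-DNMT1 in 1 other line.

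The strongest sites gave other shares than the class. Of the 101 RFTSdel-only regions with −log10 q of at least 4, the RFTSdel inhibitor libraries called 46 (45.5%) and 80 (79.2%), UHRF1KO DMSO called 62 (61.4%), and WT and NTC with inhibitor called 0 of 101 each, which allows a share of up to 2.97%. Both RFTSdel inhibitor libraries and no other library called 24 of the 101. None of the 6 libraries called 83 of the 557 RFTSdel-only regions (14.9%) and 414 of the 2304 wild-type-only regions (18%). The matching shares over all merged regions are not given here, also for the 24 of 101. These counts are therefore not read as particular to either class.

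**Figure D3:**
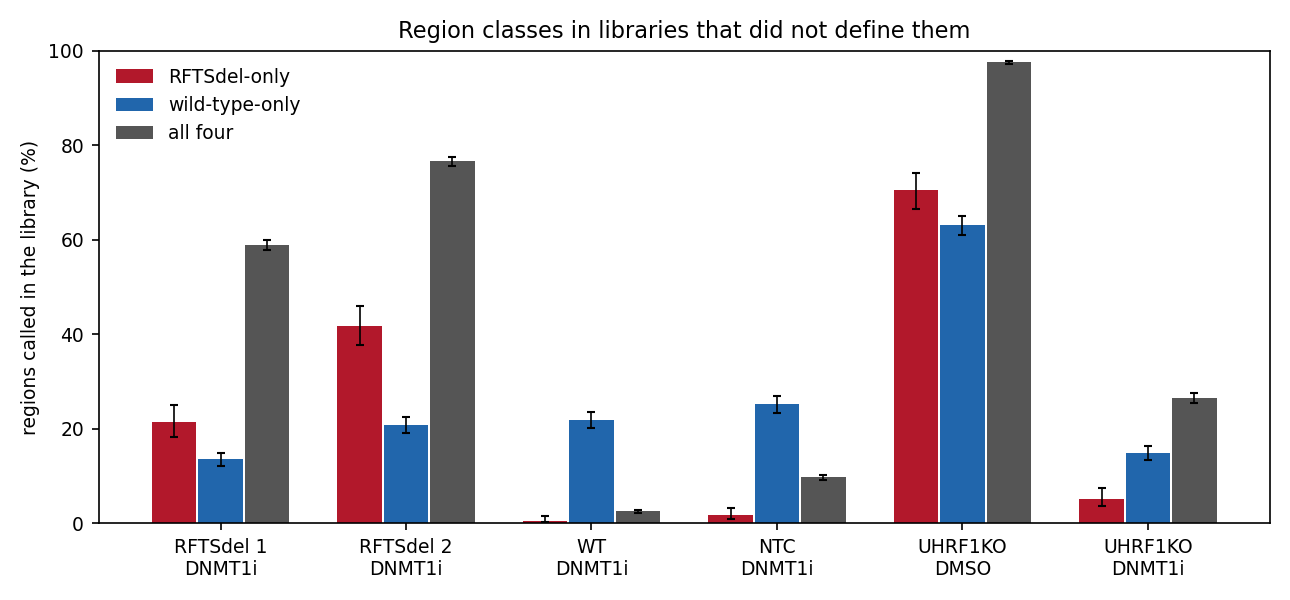
Share of each region class called in 6 libraries that did not define it (bars; error bars are 95% Wilson intervals, counting error only). RFTSdel-only regions reach 41.8% in RFTSdel replicate 2 with inhibitor and 0.539% in WT with inhibitor, and UHRF1KO under DMSO calls 70.6% of them.

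At the level of genes, 359 of 19974 protein-coding genes (1.8%) had a peak at an end in both RFTSdel libraries and in neither wild-type library, and 649 (3.25%) showed the reverse. All 4 libraries marked 6712 genes (33.6%). In the whole peak lists, 4 of 27 gene lists had more members marked in both RFTSdel libraries than in either wild-type library. A further 7 had more in both wild-type libraries, and in 16 the groups overlapped. The RFTSdel-only count was 669 without WT and 1644 without NTC, and the wild-type-only count 1449 and 1302. Peaks at a gene's end can belong to a neighbour, and counts of genes are not counts of sites.

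In the whole peak lists, DNA replication genes showed the largest excess in RFTSdel among the 27 gene lists. Of 47, a peak marked 37 and 41 in RFTSdel, 22 in WT and 31 in NTC, against 45.1%, 47.7%, 44.3% and 51% of all coding genes. Of these 47, 6 were RFTSdel-only (12.8%) and 0 wild-type-only, against 1.8% and 3.25% of all coding genes. CDC45, a helicase cofactor on chromosome 22, had a −log10 q of 6.7 and 4.9 in the RFTSdel replicates and no peak in WT or NTC. MCM6 and MCM5, subunits of the replicative helicase, had 2.13 and 2.35 and had 1.43 and 2.39. RPA2, of the single-strand binding complex, had 1.44 and 2.48, POLA2, of the primase complex, 1.28 and 4.99, and TOP2A, the topoisomerase of dividing cells, 1.11 and 3.72. UHRF1KO DMSO called 5 of these 6, all but MCM5.

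Replication-dependent histone genes, which supply histones in S phase, followed the same order. Of 69, RFTSdel marked 43 and 49, WT 26 and NTC 40. The 8 RFTSdel-only genes made 11.6% of the list, against 1.8% of all coding genes. They rested on 6 regions, because H2AC8 and H2BC8 share 1 and H2AC7 and H2BC7 share another. H3C2 had a −log10 q of 4.46 and 5.54, H3C10 3.91 and 3.36, the H2AC8 and H2BC8 pair 3.65 and 3, and the H2AC7 and H2BC7 pair 4.22 and 2.59. Near-identical histone genes may share reads, so the assignment among them is uncertain. Cohesin and CTCF genes were marked in 14, 14, 11 and 13 of 16 in the order RFTSdel 1, RFTSdel 2, WT, NTC, with SMC3, a cohesin ring subunit, RFTSdel-only (2.03 and 2.03). SMC3 alone is 6.25% of this short list. KMT2A fusion and leukaemia targets gave 20, 20, 19 and 19 of 28, a difference of 1 gene. A strength threshold shifted these counts for coding genes at large. Over all coding genes the mean difference in genes marked was −1.29 percentage points in the whole lists and 22.4 at −log10 q of at least 4, with 5841, 6408, 1451 and 1846 genes marked. The replication list stood above all genes in both settings, at 26.6 and 44.7 points. The histone list stood above in the whole lists, at 18.8 points, and below at the threshold, at 13. Without WT these 2 lists gave 17 and 8.7 points in the whole lists. At −log10 q of at least 4 the replication list was not the highest. Methyl-CpG binding proteins gave 55 points, de novo methylation and TET genes 50, Polycomb genes 48.2, heterochromatin genes 47.2 and MYC network genes 46.2.

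Developmental regulators showed the opposite order in the whole lists. Homeobox genes outside the HOX clusters, which pattern the embryo and are silent in most blood cells, were marked in 17 and 15 of 99 in RFTSdel and in 42 in both WT and NTC. Of the 99, 15 were wild-type-only (15.2%) and 1, ONECUT1, was RFTSdel-only (1.01%), against 3.25% and 1.8% of all coding genes. ONECUT1 had a −log10 q of 2.99 and 5.4. LHX3, a pituitary and motor neuron regulator, had a −log10 q of 2.38 in WT and 2.4 in NTC. NKX6-2, of neural progenitors, had 2.31 and 2.29, IRX1 2.85 and 2, IRX2 1.96 and 2.11, NKX2-4 2.39 and 1.78, and LHX5 1.61 and 1.62. The values of these 6 genes all lay under 3. The mean difference was −26.3 percentage points in the whole lists, against −1.29 for all coding genes. At −log10 q of at least 4 it was 10.1, against 22.4 for all genes, with 10, 14, 2 and 2 homeobox genes marked, and at a fold enrichment of at least 4 it was 3.54 against 14.8. The sign thus reversed with the shift of all genes, and the list stayed below all genes at each of these thresholds. With the inhibitor, RFTSdel marked 33 and 48 of the 99, and both RFTSdel inhibitor libraries called 6 of the 15 wild-type-only genes. WT with inhibitor called 11 of these 15 and NTC with inhibitor 12. Of all 649 wild-type-only genes, the RFTSdel inhibitor libraries marked 35% in replicate 1 and 49.5% in replicate 2.

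SOX, T-box, forkhead, neural bHLH and GATA regulators were marked in 35 and 34 of 105 in RFTSdel, 48 in WT and 52 in NTC. SOX8, TBX2, FOXE1, TBXT, the mesoderm regulator brachyury, and GATA2, of blood progenitors, were wild-type-only, with −log10 q between 1.12 and 2.97. FOXM1, a regulator of mitotic genes, was RFTSdel-only with 6.82 and 6.08, as was SOX4 with 2.15 and 2.35. Wild-type-only and RFTSdel-only genes made 4.76% and 1.9% of the list, near the 3.25% and 1.8% of all coding genes. The difference was −14.8 points in the whole lists, 2.38 at −log10 q of at least 2 and 14.8 at 4, where all genes gave −1.29, 11.2 and 22.4. Potassium channel genes were marked in 17 and 17 of 95 in RFTSdel, 32 in WT and 34 in NTC. Among the wild-type-only genes were KCNS2 (2.25 and 2.18), KCND3, KCNS3, KCNK4 and KCNQ5. Wild-type-only genes made 6.32% of the list and RFTSdel-only genes 0%, against 3.25% and 1.8% of all coding genes. The difference of the potassium channel list was −16.8 points in the whole lists and 6.84 at −log10 q of at least 4, both below all genes.

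The other lists with the higher wild-type counts were as follows. Zinc finger genes of the ZNF and ZFP families, many of which repress transposable elements, were marked in 230 and 245 of 527 in RFTSdel, 268 in WT and 271 in NTC. Of these, 10 were RFTSdel-only, led by ZNF678 (4.57 and 4.76), and 23 wild-type-only, led by ZNF362 (4.16 and 6.19) and by ZNF10 and ZNF891, which share 1 peak (2.84 and 4.74). These are 1.9% and 4.36% of the list, near the 1.8% and 3.25% of all coding genes. Of the 23, 15 lie on chromosome 19. At −log10 q of at least 4 the order was the opposite, with 130, 150, 47 and 67 zinc finger genes marked, a difference of 15.7 points against 22.4 for all genes. Imprinted genes were marked in 12, 14, 18 and 20 of 35, with ZDBF2 wild-type-only (2.6 and 1.65), and in 10, 10, 4 and 4 at the threshold. ZDBF2 is 2.86% of that list, near the 3.25% of all coding genes. Erythroid and megakaryocyte markers gave 3, 2, 6 and 6 of 20, with GP1BA and KLF1 wild-type-only at their ends. These are 10% of a short list, against 3.25% of all coding genes. The span of KLF1 held 1 peak in each of the 4 libraries, so both RFTSdel libraries had a peak within that gene. Olfactory receptors, 390 genes of a family silent outside the nose, gave 0, 1, 2 and 2.

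In the 16 gene lists where the groups overlapped in the whole peak lists, WT often had the fewest genes while NTC reached the RFTSdel level. Maintenance methylation genes were marked in 10, 10, 8 and 10 of 12, and SUMO pathway genes in 23, 21, 16 and 21 of 24, with SENP2, a SUMO protease, RFTSdel-only (3.83 and 1.52). Heterochromatin genes gave 13, 15, 8 and 14 of 18, methyl-CpG binding proteins 9, 9, 6 and 9 of 10, and Polycomb genes 22, 23, 18 and 22 of 28. In the last list PHC1 was RFTSdel-only (2.32 and 6.17) and PCGF2 wild-type-only (1.52 and 1.23). Of the de novo methylation and TET genes, 7, 7, 6 and 7 of 10 were marked, and TET1, which oxidises methylcytosine, was wild-type-only (2.04 and 2.06). Viral sensing and interferon genes gave 19, 24, 19 and 24 of 50, with STING1, an adaptor of DNA sensing (3.18 and 3.71), and IRF9 (2.74 and 1.81) wild-type-only. These 2 genes are 4% of the list, near the wild-type-only share of all coding genes, 3.25%. SENP2 (4.17% of its list), PHC1 and PCGF2 (3.57% each) and TET1 (10%) are each 1 gene of a short list. Of all coding genes 1.8% were RFTSdel-only. Ribosomal protein genes gave 57, 62, 50 and 64 of 79, nuclear genes of oxidative phosphorylation 59, 60, 44 and 60 of 84, and MYC network genes 11, 11, 8 and 11 of 13. Among stronger peaks NTC fell below RFTSdel in several of these lists. At −log10 q of at least 4, methyl-CpG binding proteins gave 5, 6, 0 and 0, and heterochromatin genes 10, 13, 2 and 4. Polycomb genes gave 18, 19, 4 and 6, and MYC network genes 7, 8, 1 and 2. Their differences ran from 46.2 to 55 points, against 22.4 for all coding genes. HOX cluster genes (1, 5, 1 and 1) and myeloid surface and granule markers (1, 1, 1 and 3) still overlapped.

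HOX cluster genes were marked in 12, 12, 12 and 18 of 39. HOXC4, HOXC5 and HOXC6 share an annotated end and 1 RFTSdel-only peak (2.44 and 4.96), HOXC10 had its own (2.6 and 1.75), and HOXC13, at the other side of the cluster, was wild-type-only (1.51 and 1.17). RFTSdel-only genes made 10.3% of the list, against 1.8% of all coding genes, but rested on 2 regions. The wild-type-only gene made 2.56%, against 3.25%. Clustered protocadherins were marked in 1 gene each in RFTSdel and WT and in 24 of 53 in NTC, so this count sets NTC apart from the other 3 libraries. Germline and cancer-testis genes gave 11, 12, 16 and 12 of 144. Myeloid transcription factors gave 14, 16, 15 and 18 of 21, myeloid surface and granule markers 8, 10, 9 and 14 of 26, and lymphoid markers 6, 4, 6 and 9 of 29. Occupancy is not expression, so these lists do not test the identity of the line. CEBPA, a myeloid regulator, was marked in all 4 (11.3, 10.8, 4.64 and 3.97), while the erythroid regulator GATA1 was marked in none. DNMT1 itself had a peak at an end in all 4, with 7.4 and 13 in RFTSdel, 2.34 in WT and 4.94 in NTC. UHRF1 had no peak at an end, and its span held 1 peak in each RFTSdel library, 1 in WT and 3 in NTC.

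Chromosome X held a larger part of the RFTSdel lists. Its share of peaks was 2.01% and 2.13% in RFTSdel, 1.05% in WT and 1.32% in NTC, a difference of 0.881 percentage points (exact permutation test, p = 0.333), against 5.15% of the genome span. Of 848 X-linked coding genes, 206 and 239 were marked in RFTSdel, 111 in WT and 200 in NTC, while autosomal genes were marked in 46%, 48.5%, 45.7% and 52.2%. Relative to autosomes, X genes were thus marked at 0.528 and 0.581 in RFTSdel, 0.286 in WT and 0.452 in NTC. Of the 359 RFTSdel-only genes 37 (10.3%) were X-linked, against 8 of 649 wild-type-only genes (1.23%), 77 of 6712 genes marked in all 4 (1.15%) and 4.25% of all coding genes. FAAH2 and SPIN2B, which share 1 peak, led them with a −log10 q of 4.92 and 5.84. KDM5C, a histone H3K4 demethylase gene, had 5.06 and 4.12, GEMIN8, of the complex that assembles splicing particles, 4.06 and 4.41, and PPP1R3F, a phosphatase regulatory subunit, 3.87 and 3.85. PRICKLE3, GNL3L, TRMT2B and RAP2C followed. These X-linked genes were chosen after their values were seen. Among regions, the X share was 7.9% in RFTSdel-only and 0.694% in wild-type-only. The RFTSdel-only share was between 4.78% and 5.24% when any 1 library was left out. RFTSdel-only regions kept the larger X share, 4.63% against 0.459%, once peaks under a −log10 q of 2 were dropped. The values were 3.15% and 0.431% for a minimum fold enrichment of 4, and 5.26% and 0.724% for lists of equal length. A minimum −log10 q of 4 gave 1.41% of 3475 RFTSdel-only regions and 2.44% of 41 wild-type-only regions, the latter too few to settle the order. In the whole lists 1.5% of all merged regions and 1.16% of regions called in all 4 lay on X. At that threshold RFTSdel-only regions thus no longer had a large X share. Over whole peak lists the X share still differed by 0.693 points there.

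Other chromosomes also separated the classes. Chromosome 19 held 3.41% of RFTSdel-only, 14.1% of wild-type-only and 9.12% of all-4 regions. Chromosome 8 held 1.44%, 6.34% and 4.66%, chromosome 13 1.08%, 2.65% and 2.09%, and chromosome 6, which carries the main histone cluster, 8.26%, 3.52% and 4.37%. Over whole lists the shares were closer, with 8.24%, 8.02%, 10.6% and 8.86% on chromosome 19 and 4.43%, 4.31%, 5.3% and 5.06% on chromosome 8. DNA copy number of the line was not measured here.

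Promoters of genes marked in all 4 libraries were the more GC-rich, and those of RFTSdel-only genes lay near the level of all genes. Windows of 300 bases, from 250 before the start to 50 after it, were found for 317 of 359 RFTSdel-only genes (88.3%) and 5521 of 6712 all-4 genes (82.3%). The median GC content was 61% (quartiles 57 and 66) against 68.3% (62 and 73.7) and 62.7% for all coding genes in the table, and the median ratio of observed to expected CpG was 0.812 against 0.873 and 0.763. Over all promoters marked in a library, median GC content was 67% and 66.3% in RFTSdel, 67.7% in WT and 67% in NTC, and the groups overlapped. Wild-type-only genes were left out of this comparison because 68.9% had a window, under the 80% required. The CCAAT box, searched as CCAAT on both strands, was found in 50.8% of RFTSdel-only windows, 34.3% of all-4 windows and 36.3% of the 15812 coding gene windows in the table. The core of the NRF1 motif, GCATGCGC, was found in 11%, 5.51% and 4.26%. The ETS motif CTTCCGG gave 23%, 20.2% and 14.2%, the GC box GGGCGG 65.9%, 77.5% and 58.5%, and TATAAA 7.26%, 4.89% and 9.64%. The YY1 motif AAGATGGC (5.05%, 5.6% and 3.91%), the CRE TGACGTCA (3.15%, 3.39% and 2.59%) and the E-box CACGTG (9.15%, 11.1% and 8.87%) lay closer together. The motifs searched do not contain one another, and a match describes letters in a window, not a bound factor.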

How the data were processed

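Groups came from the sample labels. Each file lists broad peaks of 1 library, not of pooled replicates. The submitters' processing notes name the GRCh38 build and the tools MACS2, BWA, cutadapt, deepTools and Picard, without their roles. The sources used here give no version, setting or control library. Fold, as deposited, is a ratio of signal over the background of the caller. Both −log10 columns, of p and of q, are as deposited. The deposited score column was not used. The values imply a cutoff of q 0.1.

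Peaks on chromosomes 1 to 22 and X that did not overlap a parental peak were kept, and touching or overlapping peaks of the 4 lists were merged. Genes and promoter sequences came from RefSeq for GRCh38.p14 (59098 genes on these chromosomes, 19974 protein-coding). Strand was known for 79.2% of coding genes, under the 80% the plan required for using gene starts, so either end was used. The 6 promoters are credited to that table. Shares have 95% Wilson intervals, and groups were compared with exact two-sided permutation tests.

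Named regions are, per direction, the 10 strongest by the lower −log10 q, the 5 longest, the 5 genes with the most regions (those tied are in alphabetical order), up to 6 members of a list, the 6 strongest regions of all 4 lists, DNMT1 and UHRF1. A few items that this rule selects are not reported here. The members and lists were chosen with earlier results of these data known. The inputs were not analysed here. Alternatives changed the parental filter, the strength threshold, list length, merging, window, gene end and libraries. The interval code was tested on simulated lists. Tools were scipy 1.17.1, pandas 2.3.3, numpy 2.4.6, matplotlib 3.10.9 and Python 3.11.15.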

Additional observations from a re-analysis of the deposited data

How the results depend on the processing

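Of 241 recomputed values, 139 kept their direction or stayed within the margin set for their kind (1 SD, the Wilson interval, or 1.5 times a count), 88 moved further and 14 reversed. Differences with a test were judged by direction alone, and some of them changed in size. The strength threshold reversed the log2 differences of RFTSdel minus wild type. At −log10 q of at least 2, at least 4 and at a fold of at least 4, peak number gave 0.10, 1.77 and 0.32 in place of −0.60, and covered length 0.18, 1.96 and 0.50 in place of −0.49. With lists of equal length covered length gave 0.06, and peak number 0.00 by construction. In percentage points of members marked, the homeobox list gave 10.1 at −log10 q of at least 4 and 3.54 at fold 4, the potassium channel list 6.84 and 0.526, and the SOX, T-box, forkhead, neural bHLH and GATA list 2.38, 14.8 and 6.19 at the 3 thresholds. All coding genes gave 11.2, 22.4 and 14.8 there.

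At −log10 q of at least 2, at least 4, fold of at least 4 and equal length, RFTSdel-only regions numbered 1706, 3475, 2220 and 1541 and wild-type-only regions 653, 41, 464 and 829. RFTSdel-only genes numbered 1358, 3073, 1887 and 1190, and wild-type-only genes 180, 19, 138 and 223, or 387 with gene starts only. RFTSdel peaks overlapping a wild-type list made 60.4%, 22.8%, 49.1% and 63.6%, and 66.1% where 50% of the peak had to be covered. Wild-type peaks overlapping an RFTSdel list made 64.6%, 77%, 60.9% and 63.5%, and 43% with that rule. Wild-type-only regions called in the wild-type inhibitor libraries made 11.3%, 6.1%, 10.9% and 18.1%.

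Leaving out 1 library at a time gave 1069 to 2138 RFTSdel-only and 2685 to 11403 wild-type-only regions, 460 to 1644 RFTSdel-only and 761 to 1449 wild-type-only genes, 14% to 40.5% of RFTSdel-only regions called in RFTSdel inhibitor libraries (lowest without RFTSdel replicate 1), and 10% to 21.6% of wild-type-only regions called in wild-type inhibitor libraries (lowest without WT). Leaving out a library left 1 on a side, so these values have no test. The cause of these moves was not tested. No paired analysis was possible because the groups compared share fewer than 2 replicate numbers. Unknown depth limits every count of peaks, and a region without a peak is not shown to be unbound.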

Other observations

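The wild-type-only genes were marked more often than others in the wild-type libraries with inhibitor, which had no part in choosing them. Of the 649 wild-type-only genes, WT with inhibitor marked 325 (50.1%) and NTC with inhibitor 366 (56.4%), while of the 6712 genes marked in all 4 DMSO libraries they marked 230 (3.43%) and 791 (11.8%), and of all coding genes 9.98% and 14.6%. The RFTSdel inhibitor libraries showed the other order, with 35% and 49.5% of wild-type-only genes and 63.2% and 82.6% of genes marked in all 4. They marked 21.2% and 45.4% of RFTSdel-only genes, fewer than of wild-type-only genes and around the 29.2% and 41.4% of all coding genes. The shares of all coding genes include the genes marked in all 4 and the genes marked in none. Homeobox genes outside the HOX clusters were marked in 56 of 99 in WT and 66 in NTC with inhibitor, more than the 42 of both under DMSO. DNA replication genes were marked in 0 and 2 of 47 in the same inhibitor libraries and in 15 and 27 with RFTSdel and inhibitor. UHRF1KO under DMSO, with wild-type GFP-DNMT1, marked 37 of the 47 replication genes (78.7%) and 42 of 69 histone genes (60.9%). It marked 53.8% of all coding genes. The replication count equals the lower RFTSdel count under DMSO. The histone count lies between those of NTC (40) and RFTSdel (43 and 49) under DMSO.

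Clustered protocadherins, adhesion genes of neurons that share long arrays, split libraries without regard to the construct. NTC under DMSO marked 24 of 53 and RFTSdel replicate 2 with inhibitor 22, whereas RFTSdel replicate 1 with inhibitor marked 0, WT with inhibitor 8 and UHRF1KO under DMSO 2. Members of an array can share a peak, so these are not separate sites.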
